A study of Mus musculus with 6 samples.

Results

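The genes described here encode the kinases and their upstream regulators that carry growth factor and stress signals from Ras to the mitogen-activated protein kinases (MAPKs). The group holds 50 mouse genes out of 20284 named genes on the array. They were chosen by name, with earlier results of these data known. They fall into the Ras and Raf genes with their regulators (10), Map4k (4), Map3k (10), Map2k (7) and Mapk (9) kinases, and the kinases that MAPKs act on (10). Of these genes 49 have a probe, 74 probes in all, and 47 genes with 71 probes were well above background on at least 3 arrays. Map4k3 was not matched to a probe, and Sos1 and Rps6ka2 were each well above background on 1 array, so that these genes have no tested value.

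The cells were cultures of mouse spermatogonial stem cells, which sustain sperm production, derived from dissociated testis cells and kept on mouse embryonic fibroblasts as feeder cells. One group received captopril, an inhibitor of angiotensin-converting enzyme, at 0.01 M for 24 h. The other group received sterile water, for which the labels also give 0.01 M, for 24 h. Each group has 3 one-colour Agilent arrays, which carry the replicate numbers 2, 3 and 4 and come from independent experiments per the labels. The strain and age of the mice are not given in the sources used here. Whether the experiments used separate animals is not given either, so p-values measure the spread between these samples. The series title links the enzyme to stem cell self-renewal through MAPK signalling, and the comparison asks whether the transcripts of that pathway differ with the drug.

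In a MAPK cascade each kinase phosphorylates the next: a Map3k (Raf in the growth factor branch) acts on a Map2k, which acts on a Mapk. The ERK branch runs from Ras through Raf and Map2k1 and Map2k2, while the JNK branch runs through Map2k4 and Map2k7 to Mapk8, Mapk9 and Mapk10. The p38 branch runs through Map2k3 and Map2k6 to Mapk11, Mapk12, Mapk13 and Mapk14. The pathway is known to act downstream of GDNF and FGF receptors in spermatogonial stem cells. Activity is set mainly by phosphorylation, which an array of transcripts does not measure.

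The 12 spermatogonial stem cell markers all passed the background filter, and 11 or 12 of them were well above background on every array. All 12 feeder fibroblast markers were well above background on every array, so transcripts of the cascade can come from both cell types. In such mixed RNA, fewer cells of a type and less RNA per cell cannot be told apart. The summed signal of the feeder markers, in multiples of each array's 75th percentile, was 149.8 to 267 in water and 128 to 162 with captopril. Gene by gene, the feeder markers had a median difference, captopril less water on the log2 scale, of −0.49 over 6 arrays and −0.22 with water replicate 3 left out, and none passed the test. At an unadjusted p under 0.05, 4 of the 12 were lower in both comparisons (4.92% and 6.99% of all genes). Over the 5 arrays these were Col3a1 (−0.66), Lum (−0.61), Pdgfrb (−0.72) and Postn (−1.14), which code for matrix proteins and a growth factor receptor. Not all feeder markers were lower: 3 of the 12 had positive values over 6 arrays and 4 over 5, the highest over 5 being Thy1 (0.32). The part of the feeder markers in the values of the cascade genes was not tested. The summed signal of the stem cell markers was 53.6 to 90.3 in water and 57.0 to 75.3 with captopril. Their median difference was −0.01 over 6 arrays and 0.14 over 5, with 7 positive and 5 negative values over 5. At an unadjusted p under 0.05, 1 was higher over 6 arrays and 2 over 5 (3.31% and 12.1% of all genes), and 0 were lower. The highest summed signal of both lists was on water replicate 3. Of 8 Sertoli and Leydig cell markers 4 passed the filter, with a summed signal of 0.913 to 1.69 in water and 0.827 to 0.974 with captopril. Water replicate 3 correlated with the others at 0.878 to 0.893 over 32387 probes, against 0.970 to 0.992 among the other 5 arrays. The comparison was therefore made over all 6 arrays and over the 5 arrays without it, which leaves 2 water and 3 captopril arrays.

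No gene of the cascade passed the test between captopril and water, in either comparison. limma called 0 of the 47 members at an adjusted p under 0.05 over 6 arrays, where it called 0.0% of all 14883 genes tested, and 0 of 47 over 5 arrays, where it called 0.611%. At an unadjusted p under 0.05 there were 2 members over 6 arrays (4.26%, against 8.23% of all genes), namely Nf1, higher (3.31% of all genes), and Mapk9, lower (4.92%). Over 5 arrays there were 4 (8.51%, against 19.1%): Nf1, Map3k4 and Mapk10, higher (12.1% of all genes), and Mapk9, lower (6.99%). The groups lay wholly apart in 7 members over 6 arrays (14.9%, against 21.5% of all genes). Of these Nf1, Map3k4, Map2k7 and Mapk3 were above water (10.1% of all genes) and Nras, Mapk8 and Mapk9 below it (11.4%). Over 5 arrays they lay apart in 15 members (31.9%, against 42.9%), 11 above water (27.2%) and 4 below (15.7%: Nras, Map2k1, Mapk8 and Mapk9). Both shares are below those of all genes, and the difference was not tested.

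The sizes of the differences were small once water replicate 3 was left out. Expressed as log2 fold change, captopril minus water, the 47 members had a median of 0.05 over 6 arrays, with 27 positive and 20 negative values, against −0.03 over all genes. The median was 0.12 over 5 arrays, with 28 positive and 19 negative values, against 0.07 over all genes. When each array was scaled by its median in place of its 75th percentile, these medians became −0.25 and −0.01, against −0.33 and −0.06 over all genes. Single values ranged from −1.05 for Mapk9 to 1.61 for Map3k11 over 6 arrays, and from −0.80 for Mapk9 to 0.66 for Mapk10 over 5. Over 6 arrays the 95% interval of the difference lay within a 2-fold change either way for 20 members (42.6%, against 48.9% of all genes). Over 5 arrays it did so for 40 of the 47 (85.1%, against 81.2% of all genes). The other 7 were Sos2, Rasgrp1, Nf1, Map3k12, Mapk9, Mapk10 and Mapk13, for which a 2-fold difference lies inside the interval.

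**Figure D1:**
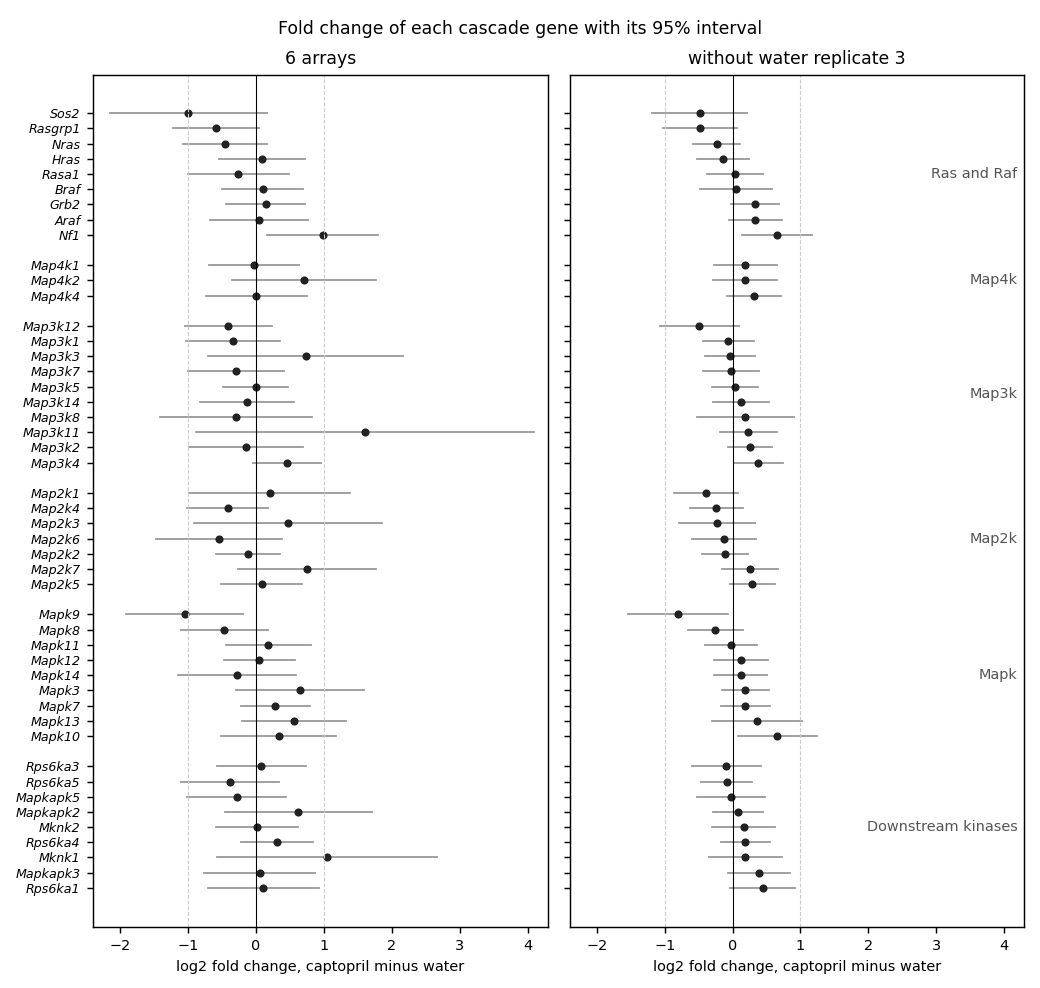
Log2 fold change (captopril minus water, x axis) of each of the 47 measured cascade genes by tier, with its unadjusted 95% interval from limma (grey line); dashed lines mark a 2-fold change. The left panel uses all 6 arrays and the right panel the 5 arrays without water replicate 3, where the intervals of 40 genes lie within the dashed lines.

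Among the Ras and Raf genes, Nf1 had the smallest p. It encodes neurofibromin, which switches Ras off by speeding up its GTP hydrolysis. On a log2 scale on which 0 is the 75th percentile of an array, Nf1 (NM_010897, 1 probe) gave −0.57, −1.53 and −0.53 in water (replicates 2, 3 and 4). With captopril, in the same order, it gave −0.20, 0.05 and 0.46. All captopril arrays lay above all water arrays, and water replicate 3 was the lowest. The log2 fold change was 0.98 (SE 0.35, limma adjusted p = 0.588). Over the 5 arrays it was 0.65 (SE 0.21, adjusted p = 0.181). In slide row 2, which holds the 3 captopril arrays and water replicate 4, it was 0.64. Neither comparison passed the test. The unadjusted 95% interval was 0.17 to 1.80 over 6 arrays and 0.15 to 1.16 over 5.

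Rasgrp1, which loads Ras with GTP and is best known in lymphocytes, had a value of the other sign. It stood at −3.18, −2.54 and −2.61 on the water arrays in the same order and at −3.33, −3.63 and −3.16 on the captopril arrays. The groups overlapped, since captopril replicate 4 lay just above water replicate 2. The log2 fold change was −0.60 (SE 0.27, adjusted p = 0.614) over 6 arrays and −0.48 (SE 0.23, adjusted p = 0.305) over 5. Of 6 tested blood cell markers, 1 passed over 5 arrays (0.611% of all genes), the T cell gene Cd3g, at −1.57 (limma adjusted p = 0.036). It was well above background on 3 water and 2 captopril arrays, so its captopril level is partly a bound. Another T cell gene, Cd3e, had the other sign, at 0.65 (adjusted p = 0.131), and the myeloid gene Lyz2 stood at −0.72. Cd79a and Adgre1 stood at −0.09 and −0.32. Over 6 arrays none of these markers passed, with Cd3g at −2.04 (limma adjusted p = 0.455) and Cd3e at 0.24. There Lyz2 and Cd79a had the opposite sign, at 1.87 and 0.90, and Adgre1 stood at −0.57. On water replicate 3 Lyz2 and Cd79a were at −5.88 and −7.16. Each was well above background on only 2 water arrays, so their values over 6 arrays have no exact size. The pan-leukocyte gene Ptprc was well above background on 1 water array and all 3 captopril arrays, so it entered the test through captopril. The summed signal of these 6 markers was 1.86 to 5.01 in water, lowest on replicate 3, and 2.51 to 3.83 with captopril. Lyz2 had the highest level of the 6 on every array but water replicate 3. The part of blood cells in the value of Rasgrp1 was not tested.

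The Ras gene Hras stood at −0.14 (SE 0.16) over 5 arrays and at 0.09 over 6. Nras stood at −0.23 (SE 0.15) over 5 arrays and −0.46 over 6 by its brightest probe. Its other 2 probes gave −0.50 and −0.52 over 5 arrays, and on all 3 probes the captopril arrays lay below water replicates 2 and 4. Over 6 arrays these 2 probes gave 0.53 and −0.16, and water replicate 3 was the lowest array on both. The Raf kinase genes Araf and Braf stood at 0.33 (SE 0.16) and 0.06 (SE 0.22) over 5 arrays, against 0.04 and 0.10 over 6. The adaptor gene Grb2, which couples receptors to Sos, stood at 0.33 (SE 0.15), against 0.14 over 6 arrays. Rasa1, another GTPase-activating protein, stood at 0.04 (SE 0.17), against −0.26. Sos2, an exchange factor for Ras, had the most scattered water arrays of this tier, at −1.68, 0.37 and −0.67, against −1.56, −1.84 and −1.59 with captopril. Its log2 fold change was −1.002 (SE 0.49) over 6 arrays and −0.49 (SE 0.30) over 5.

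The 3 measured Map4k genes encode kinases upstream of the JNK branch. None separated the groups over 6 arrays (21.5% of all genes), and Map4k4 alone did so over 5 (42.9%). Map4k1 stood at 2.43, 3.00 and 2.28 in water and at 2.32, 2.45 and 2.86 with captopril, with overlapping groups. Its log2 fold change was −0.03 (SE 0.28, adjusted p = 0.980) over 6 arrays and 0.19 (SE 0.20) over 5. Map4k2 stood at 0.68, −1.08 and 0.24 in water and at 0.42, 0.71 and 0.80 with captopril, so that water replicate 3 alone lay far below the rest. Its value was 0.70 (SE 0.45, adjusted p = 0.640) with that array and 0.19 (SE 0.20, adjusted p = 0.620) without it. Map4k4 stood at 0.002 (SE 0.32) over 6 arrays and 0.31 (SE 0.17) over 5.

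Among the Map3k genes, Map3k4 alone separated the groups over 6 arrays (21.5% of all genes), and Map3k4 and Map3k2 did so over 5 (42.9%). Map3k4 encodes MEKK4, which acts on the p38 and JNK branches. Its level was 1.66, 1.37 and 1.53 in water and 1.90, 1.89 and 2.13 with captopril. Every captopril array lay above every water array, and water replicate 3 was 0.52 below the median of the other arrays. The log2 fold change was 0.45 (SE 0.21, adjusted p = 0.616) over 6 arrays, 0.38 (SE 0.15, adjusted p = 0.250) over 5 and 0.44 within slide row 2. With the median for scaling, the values over 6 and 5 arrays were 0.15 and 0.25.

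Map3k11, the mixed-lineage kinase MLK3 of the JNK branch, had the largest fold change of the group, and it rested on a single array. It stood at 0.44 and 0.03 on water replicates 2 and 4 and at 0.35, 0.52 and 0.53 with captopril, but at −3.90 on water replicate 3, where it was still well above background. The log2 fold change was 1.61 (SE 1.06) with this array and 0.23 (SE 0.18, adjusted p = 0.502) without it. Map3k3, another activator of JNK and of ERK5, went from 0.73 (SE 0.61) to −0.04 (SE 0.16) in the same way. The remaining 7 Map3k genes had values of −0.49 for Map3k12 to 0.25 for Map3k2 over 5 arrays. They include Map3k1, Map3k5 (ASK1), Map3k7 (TAK1), Map3k8 (TPL2) and Map3k14 (NIK), at −0.06, 0.04, −0.02, 0.19 and 0.13. Over 6 arrays these 5 genes stood at −0.34, −0.01, −0.30, −0.30 and −0.13, in the same order, with Map3k12 at −0.41 and Map3k2 at −0.15.

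Of the 7 Map2k genes, 5 had negative values over 5 arrays and 3 over 6. Map2k4, which activates JNK, stood at 1.11, 1.55 and 0.92 in water and at 0.71, 0.65 and 0.96 with captopril. Captopril replicate 4 lay above water replicate 4, so that the groups overlapped, and the log2 fold change was −0.42 (SE 0.25, adjusted p = 0.636), or −0.24 (SE 0.16) over 5 arrays and −0.15 within slide row 2. Its partner Map2k7 stood at −3.19, −4.72 and −3.27 in water and at −3.08, −3.13 and −2.72 with captopril, without overlap. Its value was 0.75 (SE 0.43, adjusted p = 0.631) over 6 arrays and 0.25 (SE 0.17) over 5, since the lowest water array was again replicate 3.

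The ERK kinases Map2k1 and Map2k2 stood at −0.39 (SE 0.20) and −0.11 (SE 0.14) over 5 arrays. Over 6 arrays Map2k1 had the opposite sign, 0.20 (SE 0.50). The p38 kinases Map2k3 and Map2k6 stood at −0.23 (SE 0.23) and −0.12 (SE 0.20), against 0.47 and −0.55 over 6 arrays. Map2k5, the activator of ERK5, stood at 0.29 (SE 0.14). None of these genes had an adjusted p under 0.299 over 5 arrays.

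**Figure D2:**
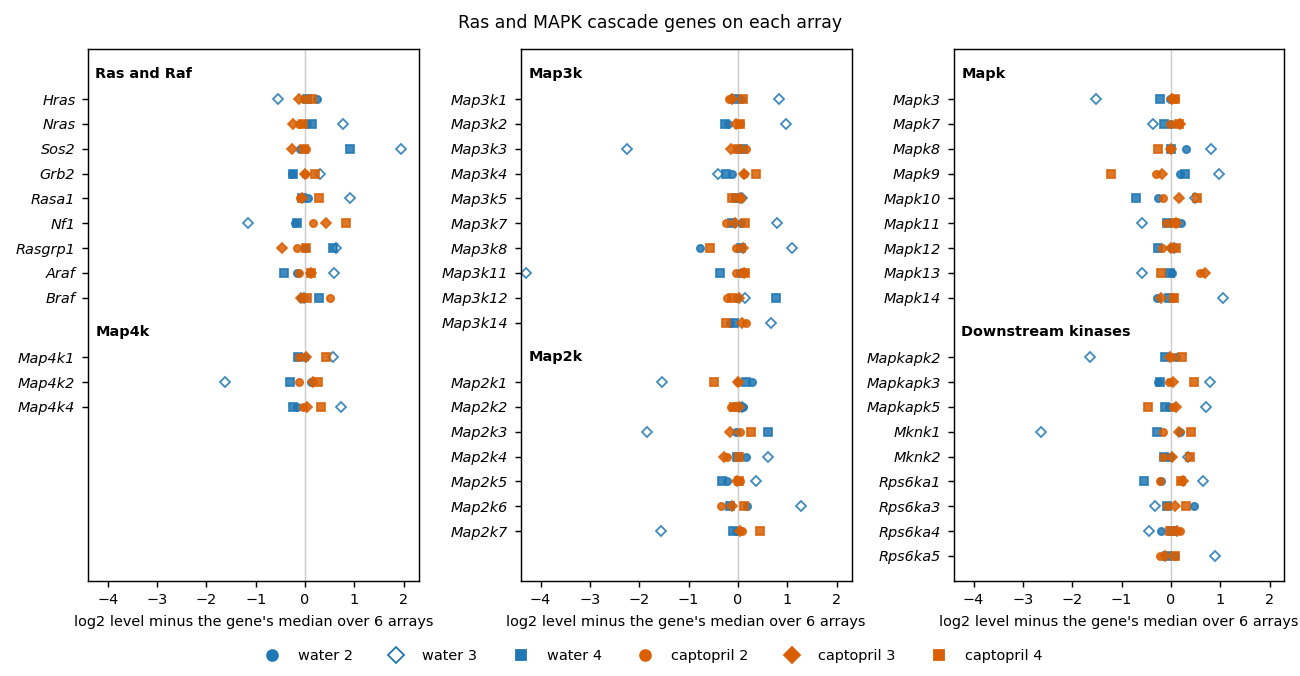
Log2 level of each measured cascade gene on each of the 6 arrays, minus that gene's own median over the arrays (x axis), for water (blue) and captopril (orange) replicates 2, 3 and 4. Water replicate 3 (open diamonds) lies outside the range of the other 5 arrays in 41 of the 47 genes, below them in 17 and above them in 24.

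The plot of levels by array shows that water replicate 3 set much of the spread in every tier. Against the median of the other 5 arrays it was more than 1 log2 unit lower in 10 members and more than 1 higher in 5, while the other arrays passed this size in 1 member in all. It lay outside the range of the other arrays in 41 of 47 members (87.2%), and in 78.9% of all genes. The SD was larger over the 3 water arrays than over the 3 captopril arrays in 41 of 47 members, with medians of 0.48 and 0.16. Over water replicates 2 and 4 the median SD was 0.13. In 13 of the 47 members the sign of the fold change differed between the fits of 6 and of 5 arrays (27.8% of all genes).

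Among the Mapk genes, Mapk3, which encodes ERK1, stood at 1.88, 0.39 and 1.68 in water and at 1.99, 1.93 and 1.98 with captopril. The groups did not overlap, but water replicates 2 and 4 lay within 0.31 of every captopril array. The difference over 5 arrays was 0.19 (95% interval −0.16 to 0.53). Over 6 arrays it was 0.65 (SE 0.40). These values are those of its brightest probe. The dimmer probe, of the same accession, stood at 1.36 and 1.02 on water replicates 2 and 4 and at 1.58, 1.69 and 0.18 with captopril. Its difference over 5 arrays was −0.04 (SE 0.45), with overlapping groups. Mapk7, the ERK5 gene, stood at 0.19 (SE 0.15) over 5 arrays and 0.28 over 6.

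The JNK genes Mapk8, Mapk9 and Mapk10 gave the widest range of values in this tier. The brightest probe of Mapk9 (NM_001163672) stood at 0.74, 1.53 and 0.84 in water and at 0.25, 0.37 and −0.67 with captopril. All captopril arrays lay below all water arrays, with captopril replicate 4 the lowest. The log2 fold change was −1.05 (SE 0.36, adjusted p = 0.588) over 6 arrays and −0.80 (SE 0.31, adjusted p = 0.232) over 5, and −0.85 within slide row 2. The other probe of Mapk9 (NM_207692, another transcript) did not show this: it stood at 0.77, −2.50 and 0.53 in water and at 0.78, 0.41 and 0.44 with captopril. Its value was 0.94 (SE 0.84) over 6 arrays and −0.11 (SE 0.19) over 5. Without water replicate 3 the latter probe is the brighter one, so the value of Mapk9 as a gene depends on which array enters the choice of its probe. The gap between both probes did not differ between the groups past the test (−0.70 over 5 arrays, SE 0.34, adjusted p = 0.594 over all probe pairs).

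Mapk10, the JNK3 gene, which is best known in neurons, stood at −0.42, 0.32 and −0.88 in water and at −0.34, 0.001 and 0.35 with captopril. Water replicate 3 lay among the captopril arrays and the other water arrays below them. The log2 fold change was 0.33 (SE 0.36, adjusted p = 0.749) over 6 arrays, 0.66 (SE 0.25, adjusted p = 0.222) over 5 and 0.88 within slide row 2. Its dimmer probe (NM_001081567) gave 0.33 over 5 arrays and was not well above background on water replicate 3. Mapk8, the JNK1 gene, stood at 0.61, 1.11 and 0.30 in water and at 0.28, 0.30 and 0.03 with captopril. The groups just failed to overlap, at 0.301 for the lowest water and 0.295 for the highest captopril array. The difference was −0.47 (SE 0.27, adjusted p = 0.631) over 6 arrays and −0.25 (SE 0.17) over 5, and −0.10 within slide row 2. Its other 2 probes gave 0.04 and 0.19 over 6 arrays but −0.21 and −0.21 over 5, so that all 3 had the same sign once water replicate 3 was left out. The probe at 0.04 was not well above background on water replicate 3 and captopril replicate 4, so its values have no exact size.

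The p38 genes Mapk11, Mapk12 and Mapk13 stood at −0.03 (SE 0.16), 0.12 (SE 0.17) and 0.36 (SE 0.28) over 5 arrays, against 0.18, 0.05 and 0.56 over 6. Mapk14, which encodes p38 alpha, has 2 probes of the same transcript accession (NM_001168514). The brighter stood at 1.45, 2.78 and 1.69 in water and at 1.76, 1.53 and 1.79 with captopril, with overlapping groups. The dimmer stood at −1.11, −1.75 and −1.36 in water and at −2.12, −2.00 and −2.43 with captopril, all below all water arrays. That probe had the smallest p of the 71 member probes over 5 arrays, at −0.95 (SE 0.19, adjusted p = 0.088 over 32433 probes), against 0.12 (SE 0.17) for the brighter. Over 5 arrays the gap between them was wider with captopril by 1.07 (SE 0.27, limma adjusted p = 0.469 over 4452 probe pairs), so that a difference between the probes did not pass the test.

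**Figure D3:**
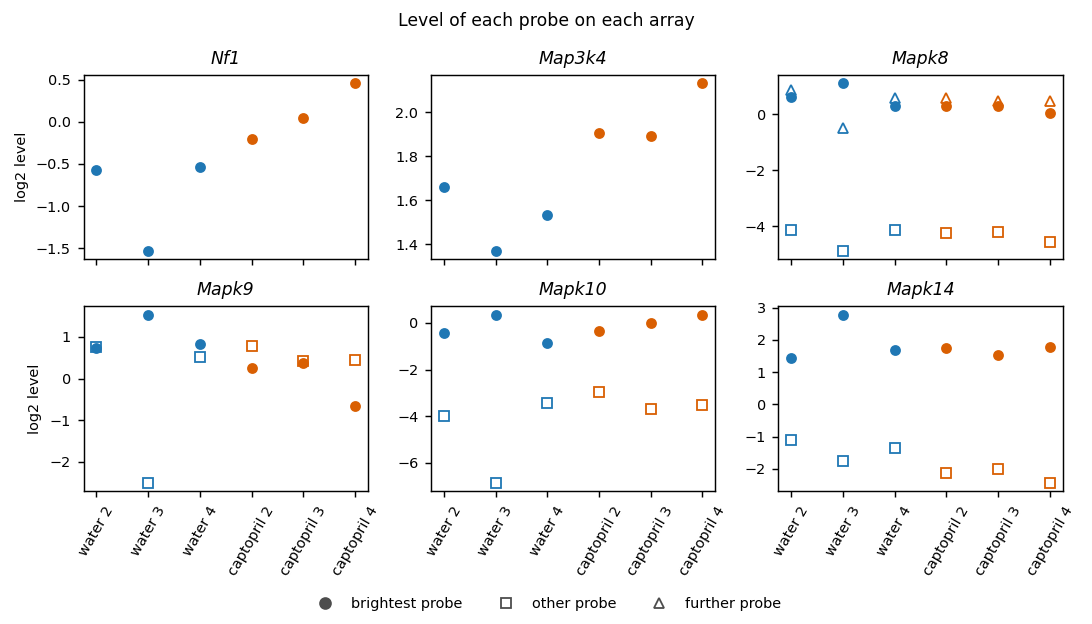
Log2 level (0 is the array's 75th percentile) of each probe of Nf1, Map3k4, Mapk8, Mapk9, Mapk10 and Mapk14 on each array, water in blue and captopril in orange; y axes differ between panels. On water replicate 3 the first probe of Mapk9 stands at 1.53 and the other at −2.50, while both lie between 0.53 and 0.84 on water replicates 2 and 4.

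Of the 9 measured kinases downstream of the MAPKs, 0 separated the groups over 6 arrays (21.5% of all genes) and 1, Mapkapk3, over 5 (42.9%). Mknk1, a kinase that phosphorylates the cap-binding factor eIF4E, stood at −0.26, −3.07 and −0.74 in water and at −0.60, −0.29 and −0.05 with captopril. Its value was 1.05 (SE 0.69, adjusted p = 0.642) with water replicate 3 and 0.19 (SE 0.23) without it. Rps6ka4, the chromatin kinase MSK2, stood at −0.36, −0.62 and −0.14 in water and at 0.02, −0.04 and −0.18 with captopril, with overlapping groups. Its value was 0.31 (SE 0.22, adjusted p = 0.646) over 6 arrays, 0.19 (SE 0.15) over 5, 0.08 within slide row 2, and 0.01 over 6 arrays scaled by their medians.

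Over 5 arrays all 9 of these kinases had intervals within a 2-fold change. Their values ran from −0.09 for Rps6ka3 (RSK2) to 0.44 for Rps6ka1 (RSK1, SE 0.20, adjusted p = 0.290). The p38 targets Mapkapk2, Mapkapk3 and Mapkapk5 stood at 0.08, 0.40 and −0.02, against 0.62, 0.05 and −0.29 over 6 arrays. Mknk2 stood at 0.16 and Rps6ka5 (MSK1) at −0.09, against 0.02 and −0.38. Over 6 arrays Rps6ka1 and Rps6ka3 stood at 0.11 and 0.08.

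Probes of the same gene disagreed most on water replicate 3. For 20 members with more than 1 tested probe, the gap between the brightest and each other probe (24 pairs) was set against its median over the other arrays. On water replicate 3 the median size of this shift was 1.33 log2 units, and 16 of 24 pairs shifted by more than 1. On the other 5 arrays the median size was 0.12 to 0.42, and 0 to 3 pairs shifted by more than 1. Over all 4448 pairs of named genes the same array had a median of 1.06, with 51.6% beyond 1, against 1.66% to 11.6% on the others.

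The measured signals gave wide shifts for Mapk3 (5.24), Grb2 (5.11), Map2k2 (4.26) and Mapk9 (4.07). For Grb2, the brighter probe stood at 0.77 on water replicate 3, above its 0.19 to 0.67 elsewhere, while the other probe of the same accession stood there at −5.60, against −1.16 to −0.59 elsewhere. For Map2k2 the brighter probe was level, at 3.54 against 3.32 to 3.56, and the other stood at −1.46 against 2.56 to 3.03. For Mapk3 both were low there, at 0.39 and −5.36. The dimmer probes of Grb2 and Mapk3 were not well above background on that array, so that their shifts have no exact size and no rank. That of Map2k2 was. In 22 of the 24 pairs the gap was wider on water replicate 3, partly because that array entered the choice of the brightest probe. With the choice made on the other 5 arrays it was wider in 19 of 24 (60.6% of all pairs).

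**Figure D4:**
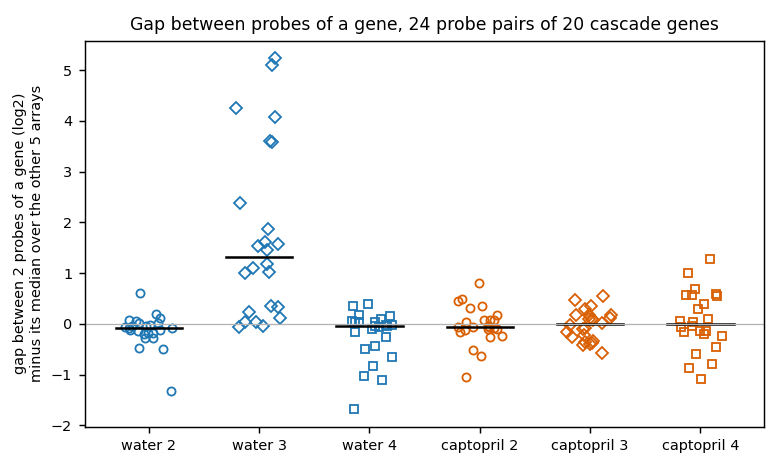
Gap in log2 level between the brightest and each other probe of a cascade gene, minus its median over the other 5 arrays (y axis), for 24 probe pairs of 20 genes on each array; black lines are medians. On water replicate 3, 16 of 24 shifts exceed 1 in size; the points at 5.24 (Mapk3) and 5.11 (Grb2) include a probe not well above background there, and the widest with both probes well above background is 4.26 (Map2k2).

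The differences with captopril matched only in part between probes. Of the 71 member probes, limma called 0 over 6 arrays (0.0% of 32433) and 0 over 5 (0.281%). At an unadjusted p under 0.05 there were 4 over 6 arrays (8.85% of all probes) and 6 over 5 (19.9%). Over 5 arrays the fold changes of the 2 probes had opposite signs in 9 of the 24 pairs (37.5%, against 36.1% of all pairs), and over 6 arrays in 8 (33.3%, against 42.2%). limma called 0 pairs in either comparison (0.0% of 4452). At an unadjusted p under 0.05 there were 0 member pairs over 6 arrays (3.46% of all pairs) and 1 over 5 (8.98%), that of Mapk14. Besides Mapk9 and Mapk14, Map3k7 had 1 probe apart from its others: over 5 arrays it stood at −0.997 (SE 0.33, adjusted p = 0.179), against −0.02 for the brightest probe of the same accession. The levels of the probe at −0.997 were −1.55, −1.10 and −0.33 in water and −1.90, −2.01 and −1.91 with captopril, so water replicate 4 weighs heavily in it. The dimmer probe of Map3k5 stood at −0.37 in both comparisons, all captopril arrays below all water arrays, against 0.04 over 5 arrays for the brighter. Araf likewise had 1 probe at −0.46 over 5 arrays, against 0.33 and 0.24 for its others, with a gap of 0.79 (SE 0.36, adjusted p = 0.585). The probes of Map3k1 gave −0.06 and −0.04 over 5 arrays, those of Map4k4 0.31 and 0.29, and those of Mapkapk5 −0.02 and 0.10.

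Of 39 further genes of the pathway (adaptors, scaffolds, Ras regulators and other kinases), 35 were tested and none passed over 6 or 5 arrays. Over 6 arrays 16 values were positive and 19 negative, with a median of −0.01, and over 5 arrays 21 and 14, with a median of 0.10. At an unadjusted p under 0.05 there were 1 higher and 0 lower over 6 arrays (3.31% and 4.92% of all genes), and 1 higher and 3 lower over 5 (12.1% and 6.99%). The 1 higher gene was in both cases Mapk15, which encodes the atypical kinase ERK8. It stood at −5.36, −6.32 and −5.68 in water, where it was well above background on 1 array, and at −4.75, −4.21 and −4.43 with captopril. It entered the test through the captopril arrays, where it is high, and its water level is mostly a bound, so no fold change is given. Tab3, a partner of TAK1, and Taok1, a Map3k, had the next smallest p over 6 arrays, at −0.52 (SE 0.23) and −0.97 (SE 0.47). Over 5 arrays they stood at −0.38 and −0.51. The 3 lower genes over 5 arrays were Tab3 and the Ras GTPase-activating genes Rasal1 (−0.74, SE 0.23) and Rasa2 (−0.49, SE 0.19), which stood at −0.17 and −0.35 over 6; the last 2 are named after their values were seen.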

How the data were processed

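The authors deposited spot intensity values from Agilent's Feature Extraction software, with background subtracted within each array. The file headers name version 11.5.1.1, the submitters' processing notes 10.7. The log2 values of the authors' deposited series table equal log2 of that signal up to a constant per array (100% of probes within 0.01), with column medians of −4.25 to −3.63. That table was used only as an alternative, and its further scaling is unknown. Here log2 of the processed signal minus each array's 75th percentile was used, and outlier spots and controls were left out. Between 52.2% and 60.5% of spots were well above background. The number of arrays limits the precision.

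Probes were named through their accession in the RefSeq table of GRCm38.p6 (26762 probes with 1 symbol, 28919 with none). A gene is represented by its brightest probe well above background on at least 3 arrays. Differences were tested by limma 3.58.1 (R 4.3.3), two-sided, with Benjamini-Hochberg adjustment over all genes, probes or probe pairs, and the code was tested on simulated data. Slide row comes from the scanner files' names. Genes are given for every array where they have one of the 2 smallest p of a tier, an unadjusted p under 0.05, or probes that differ (opposite values beyond 0.5, or a pair at an unadjusted p under 0.05); others are added as examples. The members and lists were chosen with earlier results of these data known. Alternatives were normexp (offset 50, on median spot signals), quantile and median scaling, other filters, probe rules, a variance trend, the replicate block, slide row, and arrays left out.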

Additional observations from a re-analysis of the deposited data

How the results depend on the processing

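No cascade gene was called under any alternative run. With the replicate number as a block, limma called 0 members and the median stayed at 0.05. Over 6 arrays same-numbered samples did not deviate together (r of −0.02, 0.02 and −0.19 for numbers 2, 3 and 4). The water deviations were taken from a mean that includes water replicate 3, so this check cannot settle whether the numbers mark pairs. The main comparison did not take them as pairs. The count of genes called over all genes was 0 to 91 with arrays left out, the highest without water replicate 3, and that of probes 0 to 91. Without that array, 39 genes were called with median scaling and 0 with quantile normalization. Probes called were 3 in slide row 2 alone and 2 with slide row as a block, where water replicate 4 alone is set against captopril. The members' median was −0.25 with scaling by the array median, which moved the median of all genes to −0.33, and −0.09 to 0.12 with arrays left out. That scaling turned the balance of all genes at an unadjusted p under 0.05 from 493 higher and 732 lower to 131 and 1008 over 6 arrays, and from 1800 and 1041 to 1041 and 1899 over 5. Map4k1, which has no direction at −0.03, stood at 0.030 with normexp, 0.042 with quantile normalization and 0.26 in slide row 2 alone or with slide row as a block, and at −0.19 to 0.19 with arrays left out. Mapk14 ranged from −0.54 to 0.12 with arrays left out. With the probe chosen on the 5 arrays other than water replicate 3, an alternative added after seeing the data, Mapk9 stood at 0.94 and Mapk8 at 0.19 over 6 arrays, through another probe of each gene, and Mapk8 stood at 0.14 with quantile normalization. The other 161 values of named members outside the array omissions kept their sign, none past the test, but not always their size. With the mean of a gene's probes over 6 arrays, Mapk9 shrank to −0.05 and Mapk8 to −0.08, while Mapk10 grew to 0.85 and Mapk14 to −0.53. The means of Mapk8 and Mapk10 each include a probe not well above background on water replicate 3, so they have no exact size. In slide row 2 alone Mapk14 stood at −0.001. Water replicate 3 limits every value over 6 arrays.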
